A study of Mus musculus with 12 samples.

Results

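The 10 genes described here encode the core antioxidant enzymes Sod1, Sod2, Sod3, Cat, Gpx1, Gpx3, Gpx4, Prdx3, Prdx5 and Txn2. They were chosen by name: every probe that is not a control and that carries 1 of these gene names on the array was taken, which gave 13 of the 41174 probes. Sod1 has 3 probes, Txn2 has 2 and each other gene has 1.

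RNA was measured on 12 single-colour arrays, 3 in each of 4 groups. C2C12 is a single mouse myoblast line, so both culture groups share 1 genetic origin, and the labels leave it unsaid whether replicate cultures were separate. Myoblasts were dividing cells taken at about 50% confluence in medium with 10% fetal bovine serum. Myotubes were grown from cells at 90% confluence, kept for 96 hours in 2% horse serum, then trypsinised and replated for 30 minutes so that mononucleated cells attached and the floating cells could be collected. The muscles were taken from male CD1 mice aged 3 months: the extensor digitorum longus (EDL), which twitches fast and lives on glycolysis, and the soleus, which is slow and oxidative. Each muscle sample held the muscles of both hind limbs of 1 mouse. The labels do not say whether the EDL and the soleus of a replicate came from the same animal. No group carried a mutation, transgene or drug. The study set proliferating and differentiated cultures against adult muscle, with the mitochondrial supply of DNA precursors as its theme.

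Superoxide, made largely as electrons leak from the respiratory chain, is turned into hydrogen peroxide by the superoxide dismutases: Sod1 in the cytosol and the space between the mitochondrial membranes, Sod2 in the mitochondrial matrix, Sod3 outside the cell. Hydrogen peroxide is then removed by catalase (Cat) in peroxisomes, by glutathione peroxidases, which spend glutathione, and by peroxiredoxins, which are reduced again by thioredoxins. Prdx3 and the thioredoxin Txn2 work in mitochondria, and Prdx5 works in mitochondria and other compartments. Contracting muscle is a known source of superoxide and hydrogen peroxide.

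Each level below is a log2 signal scaled so that the 75th percentile of every array is 9.65, and a difference of 1 is a 2-fold change. Levels of different probes cannot be set against each other, since probes bind with different strength. Between 57.4% and 72.8% of the probes of an array exceeded background clearly, and no spot was saturated. Before scaling, the 75th percentile of the signal was 1048 to 1556 in myoblasts and 1018 to 1230 in myotubes, against 466 to 595 in EDL and 457 to 614 in soleus. The replicate number was the slide, and slide 1 was scanned on a day of its own. Every group kept the same position on each slide, so that group and position cannot be told apart. All 10 fibre markers were well above background in every group, and all 10 rose from myoblasts to myotubes. The number of arrays, 3 per group, limits the precision of every value.

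Probes were tested if all 3 arrays of some group read them well above background. This held for 12 of the 13 probes and 9 of the 10 genes, and Sod3 was the exception. A gene was called when its difference was at least 1 (log2) and its adjusted p under 0.05. From myoblasts to myotubes 2 of the 9 genes were called, Gpx3 upward and Gpx1 downward, where 35.4% of the 18861 genes tested on the array were called. EDL exceeded myotubes for 6 of the 9 genes (Sod2, Gpx1, Gpx3, Prdx3, Prdx5 and Txn2) and fell below them for none, beside 47.7% of all genes called in either direction and 27.8% called higher. In soleus against myotubes 5 of the 9 genes were called, all higher (Sod2, Cat, Prdx3, Prdx5 and Txn2), beside 45.3% of all genes in either direction and 25.8% higher. Between the muscles 2 of 9 genes were called, Cat higher and Gpx3 lower in soleus, beside 9.76% of all genes. Against myoblasts 4 genes were called in EDL, all higher, beside 57.8% of all genes in either direction and 33% higher, and 6 in soleus (5 higher and 1 lower), beside 55.4%. Without the minimum fold, 6 genes had an adjusted p under 0.05 from myoblast to myotube and 5 between the muscles, beside 63.3% and 30.7% of all genes. The 3 samples of each group did not overlap for 6 genes between myoblast and myotube (68.7% of all genes), for 7 between myotube and EDL (76.1%), for 7 between myotube and soleus (74.1%) and for 7 between the muscles (44.7%). The median difference of the 9 genes was 0.24 from myoblast to myotube, 1.07 from myotube to EDL, 1.07 from myotube to soleus and -0.001 from EDL to soleus, and over all genes tested it was 0.035, 0.213, 0.145 and -0.04. The 4 groups enter several comparisons each, so the differences from myotubes share the myotube arrays and those from myoblasts share the myoblast arrays.

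The scale used for the muscles decides part of these counts. Each array received the same mass of RNA with a fixed amount of synthetic spike-in RNA. Scaling the arrays by 8 of the 10 spike-in probes in place of the 75th percentile moved the median difference over all probes by -1.01 from myotube to EDL, by -1.21 from myotube to soleus, by -0.35 from myoblast to myotube and by -0.20 from EDL to soleus. On the spike-in scale 2 of the 9 genes were called in EDL against myotubes, Gpx3 higher (1.22) and Gpx4 lower (-1.19). In soleus against myotubes only Gpx4 was called on that scale, and it was lower (-1.10). Against myoblasts the same scaling moved the median by -1.36 in EDL and -1.56 in soleus. Only Gpx3 was then called higher than in myoblasts (3.86 in EDL and 2.10 in soleus). Gpx1 was called lower than in myoblasts (-2.13 and -3.12), and so was Sod1 probe 1 in soleus (-1.56). The share of all genes called on the spike-in scale was not counted, so counts on it have none beside them. The statements on muscle against culture below are therefore statements relative to the rest of the array. For the tested members against myotubes, values on the spike-in scale stand beside them. Single genes of the wider list and cell type markers against myotubes are given on the main scale only. The 2 calls from myoblast to myotube and the 2 calls between the muscles were also made on the spike-in scale.

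**Figure D1:**
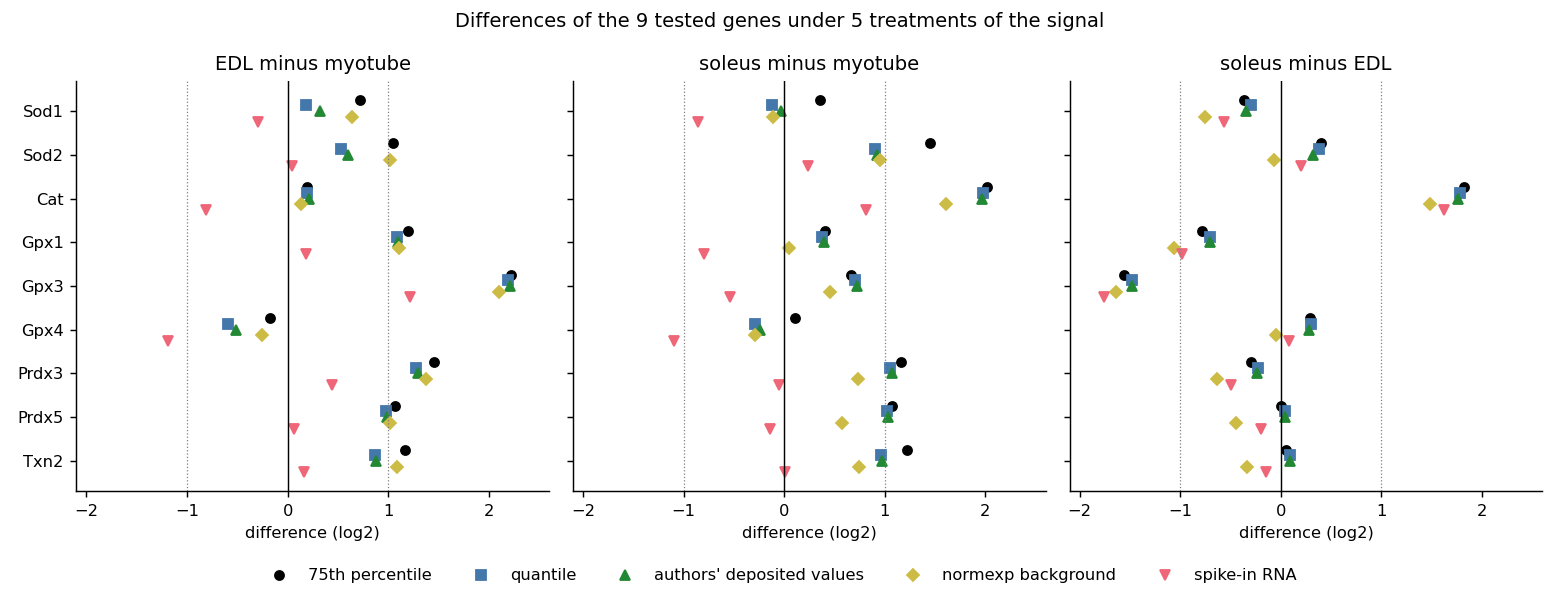
Difference in log2 signal (horizontal axis) of the 9 tested genes (vertical axis) between EDL and myotube, soleus and myotube, and soleus and EDL. The 5 treatments of the data are the 75th percentile, quantile normalization, the authors' deposited values, normexp background correction and spike-in scaling. In both panels of muscle against myotube the spike-in points lie to the left of the 75th percentile points. For Prdx3, Prdx5, Sod1, Gpx1, Gpx3 and Gpx4 in soleus they cross from above 0 to below it. In soleus minus EDL Cat stays above 0 and Gpx3 below 0 under all 5.

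Catalase, the peroxisomal enzyme that splits hydrogen peroxide into water and oxygen, was highest in soleus. The probe lies on chromosome 2 at 103255342 to 103255401 (minus strand) in build mm8, the build of the array design, whose gene models were not used here. The Cat levels were 11.09, 11.04 and 11.55 in the 3 myoblast samples and 11.67, 11.65 and 11.76 in the myotube samples. They were 11.90, 12.03 and 11.74 in EDL and 13.76, 13.60 and 13.78 in soleus. The soleus samples stood clear of the other 9, and the EDL and myotube samples overlapped. Soleus exceeded EDL by 1.82 (SE 0.14, 3.54-fold, limma adjusted p = 5.96e-06), in each of the 3 slides by 1.58 to 2.03. Soleus exceeded myotubes by 2.02 (4.06-fold, adjusted p = 3.21e-07), or by 0.81 without a call on the spike-in scale (adjusted p = 0.0866). The difference of 0.20 between EDL and myotubes did not pass (adjusted p = 0.223, 95% interval -0.11 to 0.50), and on the spike-in scale it turned to -0.81. With normexp background correction the soleus to EDL difference was 1.48 but not called (adjusted p = 0.0851).

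Gpx3, the glutathione peroxidase that cells secrete into the extracellular fluid and plasma, had the widest span of the 9 tested genes (probe on chromosome 11, 54753357 to 54753416, plus strand, mm8). Its levels were 6.98, 6.87 and 7.39 in myoblasts and 10.00, 10.05 and 10.18 in myotubes. They reached 12.25, 12.31 and 12.33 in EDL and stood at 10.69, 10.76 and 10.78 in soleus. No 2 groups overlapped, and the order ran from myoblast through myotube and soleus to EDL. The rise from myoblast to myotube was 2.99 (SE 0.13, 7.96-fold, limma adjusted p = 1.14e-08). EDL exceeded myotubes by a further 2.22 (4.68-fold, adjusted p = 6.78e-08), and this rise was also called on the spike-in scale at 1.22 (adjusted p = 0.0192). Soleus lay 1.56 below EDL (2.95-fold, adjusted p = 9.16e-06), with within-slide values of -1.56 to -1.55. The soleus to myotube difference of 0.67 (adjusted p = 7.41e-04) stayed under the minimum of 1 and turned to -0.54 on the spike-in scale. Under normexp background correction the fall from EDL to soleus was 1.64 and not called (adjusted p = 0.0727), and the rise from myoblast to myotube was 1.58.

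Cat and Gpx3 are the 2 members that were called in opposite directions between the muscles, so the 250 bases before the annotated start of each are shown. They are RefSeq sequences in build GRCm38.p6, on the strand of the gene: chr2:103485154-103485403, minus strand, for Cat and chr11:54902604-54902853, plus strand, for Gpx3. Capitals mark matches to CCAAT on either strand (ATTGG on the reverse).
Cat: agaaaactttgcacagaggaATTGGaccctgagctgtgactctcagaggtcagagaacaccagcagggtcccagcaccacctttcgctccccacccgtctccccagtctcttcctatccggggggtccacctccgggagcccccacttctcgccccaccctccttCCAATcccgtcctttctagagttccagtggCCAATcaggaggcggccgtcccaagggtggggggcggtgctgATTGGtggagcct
Gpx3: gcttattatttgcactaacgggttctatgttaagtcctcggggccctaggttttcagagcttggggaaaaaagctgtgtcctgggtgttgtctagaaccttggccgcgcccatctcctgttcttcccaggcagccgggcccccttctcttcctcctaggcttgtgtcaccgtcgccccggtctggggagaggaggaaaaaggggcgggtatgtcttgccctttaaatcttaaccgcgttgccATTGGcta
The Cat window holds 4 matches to CCAAT, at -230, -85, -55 and -13 from the start, and the Gpx3 window holds 1, at -8. Of 32851 promoter windows of this length 33.8% hold at least 1 match. G and C make up 62% of the Cat window and 55.2% of the Gpx3 window. Neither window holds TGACNNNGC, the core of the antioxidant response element, or CAGCTG, a form of the E-box bound by myogenic factors, on either strand. These are matches of letters and say nothing on binding.

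Gpx1, the abundant selenium-containing glutathione peroxidase of cytosol and mitochondria, ran the other way from Gpx3 in culture (probe on chromosome 9, 108198037 to 108198096, plus strand, mm8). Its levels were 14.27, 14.71 and 14.96 in myoblasts and 12.30, 12.85 and 12.89 in myotubes. They were 13.64, 14.05 and 13.93 in EDL and 12.79, 13.14 and 13.34 in soleus. All myoblast samples lay above all samples of the other groups, and soleus and myotube samples overlapped. The fall from myoblast to myotube was -1.97 (SE 0.23, 3.91-fold, limma adjusted p = 2.62e-05). It was called under all 5 treatments of the data, at -1.81 to -2.32. EDL exceeded myotubes by 1.19 (2.29-fold, adjusted p = 7.83e-04), with 0.19 and no call on the spike-in scale (adjusted p = 0.776). Soleus was 0.41 above myotubes without a call (adjusted p = 0.132), and -0.80 on the spike-in scale. Within slides soleus lay 0.29 to 0.49 above myotubes on the main scale. With the slide as a block in limma the adjusted p was 0.00258, but the size stayed under the minimum. Soleus was -0.79 from EDL, where the adjusted p was 0.0252 but the size stayed under 1.

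Gpx4, which reduces lipid hydroperoxides inside membranes, changed least across the groups among the glutathione peroxidases (probe on chromosome 10, 79459075 to 79459226, plus strand, mm8). Its levels were 14.79, 14.99 and 15.03 in myoblasts, 15.33, 15.67 and 15.62 in myotubes, 15.29, 15.37 and 15.44 in EDL and 15.49, 15.83 and 15.63 in soleus. The myoblast samples were the lowest 3, and the myotube samples overlapped with both muscles, which did not overlap with each other. None of the 6 differences reached 1, and the largest was 0.71 from myoblast to soleus (SE 0.12, limma adjusted p = 3.73e-04). The difference from myotube to EDL was -0.18 (95% interval -0.45 to 0.10), and that from myotube to soleus was 0.11. Scaled by the spike-in probes, both muscles were called below myotubes, as given above, which turns the sign of the soleus value.

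**Figure D2:**
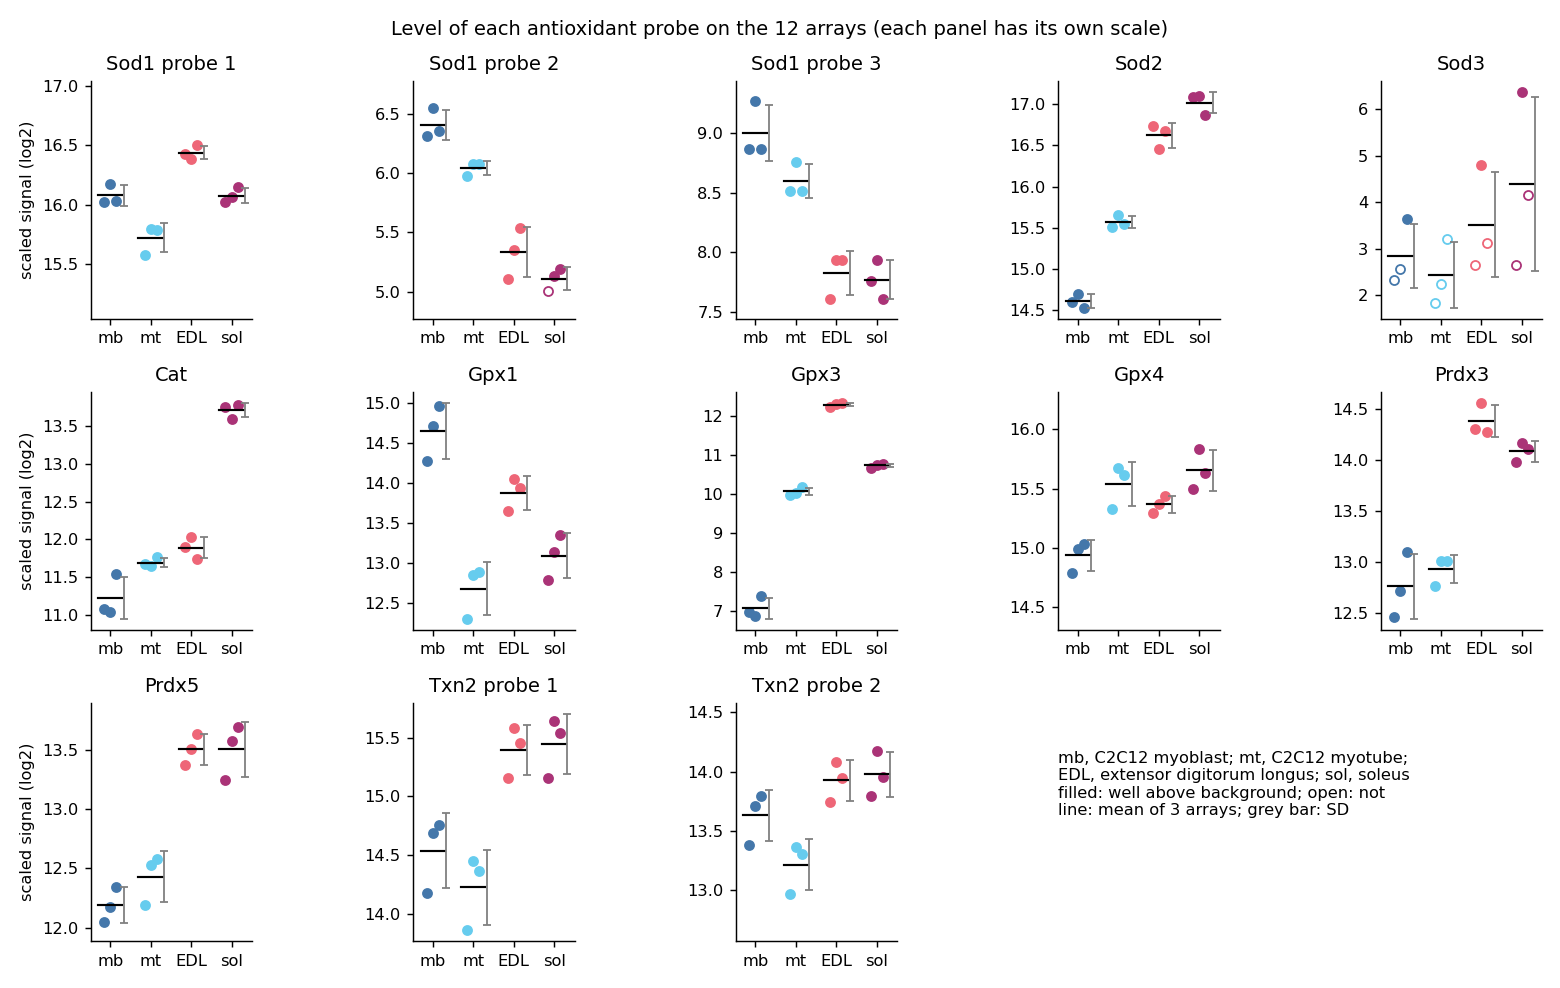
Log2 signal (vertical axis, each array's 75th percentile at 9.65) of the 13 probes in each of the 12 arrays, by group (horizontal axis). Filled points are well above background and open points are not, the short line is the group mean and the grey bar its SD over 3 arrays. Cat is highest in soleus, Gpx3 in EDL and Gpx1 in myoblasts, Sod2 lies between 14.53 and 17.10, and the Sod3 points are mostly open.

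Sod2, the manganese superoxide dismutase of the mitochondrial matrix, was higher at each step from myoblast to myotube to muscle (probe on chromosome 17, 12858140 to 12858199, plus strand, mm8). Its levels were 14.60, 14.70 and 14.53 in myoblasts, 15.51, 15.65 and 15.55 in myotubes, 16.74, 16.46 and 16.67 in EDL and 17.09, 17.10 and 16.87 in soleus. No 2 groups overlapped. EDL exceeded myotubes by 1.05 (SE 0.10, 2.07-fold, limma adjusted p = 5.67e-06). That call lies just over the minimum: it was lost at 0.99 without EDL replicate 1 and at 0.96 without slide 1. Soleus exceeded myotubes by 1.45 (2.73-fold, adjusted p = 4.62e-07). The myotube to myoblast difference of 0.96 (adjusted p = 1.52e-05) lay just under the minimum, and the soleus to EDL difference was 0.40 (adjusted p = 0.0151), which normexp background correction turned to -0.07. Spike-in scaling put the muscles 0.04 (EDL) and 0.24 (soleus) above myotubes, without a call.

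Prdx3, the peroxiredoxin of mitochondria, separated muscle from culture (probe on chromosome 19, 60918908 to 60918967, minus strand, mm8). Its levels were 12.46, 12.72 and 13.10 in myoblasts, 12.77, 13.01 and 13.01 in myotubes, 14.31, 14.56 and 14.28 in EDL and 13.98, 14.17 and 14.11 in soleus. The 6 muscle samples lay above the 6 culture samples, and the culture groups overlapped. EDL exceeded myotubes by 1.45 (SE 0.16, 2.74-fold, limma adjusted p = 1.27e-05), or by 0.44 without a call on the spike-in scale. Soleus exceeded myotubes by 1.16 (2.23-fold, adjusted p = 7.70e-05), a direction that turned to -0.06 on the spike-in scale. The soleus to EDL difference was -0.30 (adjusted p = 0.201), although the muscles did not overlap.

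Prdx5, a peroxiredoxin of mitochondria, peroxisomes and cytosol, was higher in both muscles than in culture (probe on chromosome 19, 6974155 to 6974589, minus strand, mm8). Its levels were 12.05, 12.18 and 12.35 in myoblasts, 12.19, 12.53 and 12.57 in myotubes, 13.37, 13.51 and 13.63 in EDL and 13.24, 13.57 and 13.69 in soleus. The muscle samples overlapped each other and lay above all culture samples. EDL and soleus each exceeded myotubes by 1.07 (SE 0.15, limma adjusted p = 8.92e-05 and 9.26e-05), which on the spike-in scale became 0.06 for EDL and turned to -0.14 for soleus. Both calls lie close to the minimum: without myotube replicate 1 the differences were 0.95 for EDL and 0.95 for soleus, and without soleus replicate 3 the soleus value was 0.97. The soleus to EDL difference had a 95% interval of -0.34 to 0.34.

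Txn2, the mitochondrial thioredoxin that reduces Prdx3 and Prdx5, was read by 2 probes. The first, on chromosome 15 in the array design's build mm8 (77742302 to 77742441, minus strand), gave 14.17, 14.69 and 14.75 in myoblasts, 13.86, 14.45 and 14.37 in myotubes, 15.16, 15.58 and 15.45 in EDL and 15.16, 15.64 and 15.54 in soleus. The second (77742497 to 77742556) gave 13.38, 13.71 and 13.80 in myoblasts, 12.97, 13.37 and 13.31 in myotubes, 13.74, 14.08 and 13.95 in EDL and 13.79, 14.18 and 13.95 in soleus. Both probes put muscle above myotubes, and slide 1 gave the lowest value of every group. With the first probe EDL exceeded myotubes by 1.17 (SE 0.22, limma adjusted p = 6.32e-04) and soleus by 1.22 (adjusted p = 4.86e-04). With the second the differences were 0.71 and 0.76, under the minimum, so the call of Txn2 rests on the choice of the brighter probe. On the spike-in scale the first probe gave 0.16 for EDL and 0.01 for soleus, and the second turned to -0.30 and -0.45. Without myotube replicate 1 the EDL difference of the first probe was 0.99 and no longer called. Neither probe separated soleus from EDL, with differences of 0.05 for each (95% intervals of -0.43 to 0.53 and -0.30 to 0.41).

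Sod2, Prdx3, Prdx5 and Txn2, 4 of the members that work in mitochondria, were all called higher in EDL and in soleus than in myotubes. Of all genes 27.8% and 25.8% were called higher. The median differences of the 4 were 1.12 and 1.19, beside 0.213 and 0.145 over all genes. Sod1 and Gpx1, which work partly in mitochondria, were left out of this set. Prdx5, which also works in other compartments, was kept, so the result depends on this choice of members. Gpx1 was called in EDL (1.19) but not in soleus (0.41), and Sod1 probe 1 in neither (0.72 and 0.36). Gpx4, also left out, was called in neither on the main scale (-0.18 and 0.11). All 8 differences of the 4 genes stayed above 0 under quantile normalization, with the authors' deposited values and under normexp, but fewer were called. Quantile normalization left 1 call in EDL (Prdx3, 1.28) and 2 in soleus (Prdx3, 1.05, and Prdx5, 1.02), and the deposited values left the same genes. Normexp left 2 calls in EDL (Prdx3, 1.37, and Sod2, 1.02), and in soleus limma called none, with 1 of 4 at an unadjusted p under 0.05. None of the 4 was called by limma from myoblast to myotube or from EDL to soleus, where Sod2 alone had an unadjusted p under 0.05 in both. Of 16 genes of mitochondrial content, such as citrate synthase and respiratory chain subunits, 15 were called higher in EDL than in myotubes. In soleus 14 were called higher, and the median differences were 2.01 and 2.04. With spike-in scaling 8 and 6 of the 16 were called higher, with medians of 1.00 and 0.83, and no share of all genes was counted. On that scale limma called none of the 4 antioxidant members in either muscle, and none had an unadjusted p under 0.05. Their medians were 0.11 in EDL and -0.02 in soleus, so the direction in soleus turned. The summed signal of the 16 genes was 19.47 to 19.58 in myoblasts, 19.55 to 19.74 in myotubes, 21.52 to 21.56 in EDL and 21.37 to 21.56 in soleus, on the log2 scale. Its part in the levels of the 4 genes was not tested.

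Because these 4 members moved together on the main scale, the 250 bases before their annotated starts are shown as well. They are RefSeq sequences of build GRCm38.p6 on the strand of the gene: chr17:13007589-13007838 (plus) for Sod2, chr19:60874539-60874788 (minus) for Prdx3, chr19:6910107-6910356 (minus) for Prdx5 and chr15:77928995-77929244 (minus) for Txn2. Capitals mark CCAAT or TATAAA on either strand.
Sod2: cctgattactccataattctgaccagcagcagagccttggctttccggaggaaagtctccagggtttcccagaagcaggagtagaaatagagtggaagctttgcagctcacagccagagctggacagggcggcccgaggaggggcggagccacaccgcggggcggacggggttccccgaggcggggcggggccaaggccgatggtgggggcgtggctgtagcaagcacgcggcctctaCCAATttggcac
Prdx3: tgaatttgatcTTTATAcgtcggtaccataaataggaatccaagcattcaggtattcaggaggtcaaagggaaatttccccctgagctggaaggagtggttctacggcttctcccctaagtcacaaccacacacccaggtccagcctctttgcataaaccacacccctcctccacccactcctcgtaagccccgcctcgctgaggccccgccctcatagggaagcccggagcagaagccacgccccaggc
Prdx5: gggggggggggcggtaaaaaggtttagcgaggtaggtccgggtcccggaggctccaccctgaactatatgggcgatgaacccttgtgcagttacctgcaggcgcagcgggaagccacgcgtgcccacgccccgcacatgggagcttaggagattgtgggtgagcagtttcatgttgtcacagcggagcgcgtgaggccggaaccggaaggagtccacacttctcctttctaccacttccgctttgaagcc
Txn2: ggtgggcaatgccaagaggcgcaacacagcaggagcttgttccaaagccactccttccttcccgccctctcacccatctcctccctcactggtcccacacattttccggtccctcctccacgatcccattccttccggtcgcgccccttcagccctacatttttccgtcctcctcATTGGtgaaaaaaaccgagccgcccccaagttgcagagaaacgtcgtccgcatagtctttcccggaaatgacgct
CCAAT begins at -12 from the start of Sod2 and lies on the reverse strand at -75 from that of Txn2. The Prdx3 window holds TATAAA on the reverse strand at -239, far from where a TATA box lies, and 12.4% of all windows hold that word. The Prdx5 window holds none of the words searched. AAGGTCA, the half-site of the estrogen-related receptors, was in none of the 12 windows of the 9 genes with an entry and in 4.08% of all windows. CCAAT was in windows of 6 of the 9 genes, Gpx4 having 4 annotated starts. CAGCTG, in 13% of all windows, was found only before 1 start of Gpx4. TGACNNNGC, in 10.2% of all windows, was found only before Sod1, on the reverse strand at -56.

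**Figure D3:**
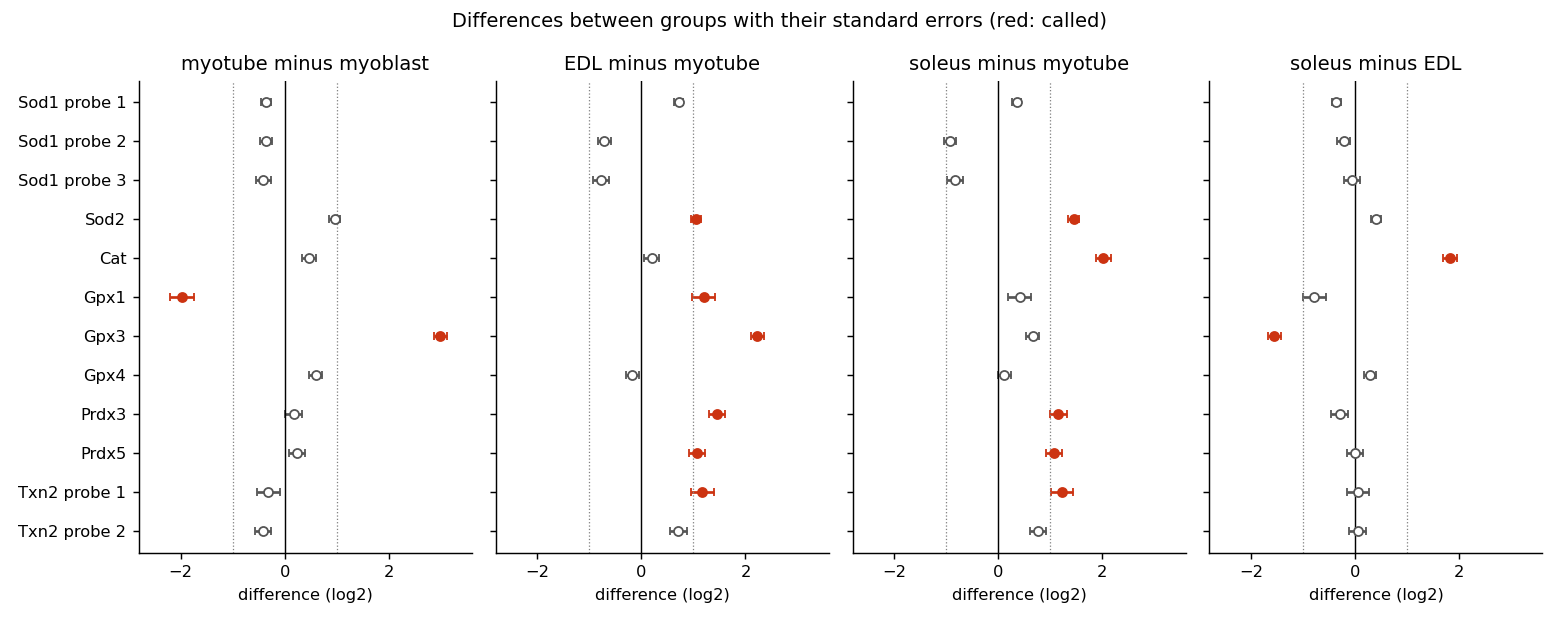
Difference in log2 signal with its SE (horizontal bars) for the 12 tested probes in 4 comparisons, with called differences in red. Of the 12 probes, 6 are red in EDL minus myotube and 5 in soleus minus myotube, all to the right of 0, while soleus minus EDL has 2 called genes on opposite sides, Cat at 1.82 and Gpx3 at -1.56. On the spike-in scale the points of muscle minus myotube shift left, by a median of 1.01 for EDL and 1.21 for soleus over all probes, and Prdx3 and Prdx5 in soleus change sign.

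Sod1, the copper and zinc superoxide dismutase, was read by 3 probes that did not move together. Probe 1 matches the Sod1 messenger RNA (chromosome 16, 90115111 to 90115170, plus strand, build mm8). It gave 16.02, 16.18 and 16.03 in myoblasts, 15.58, 15.80 and 15.79 in myotubes, 16.43, 16.39 and 16.50 in EDL and 16.02, 16.06 and 16.14 in soleus. EDL was the highest group and myotubes the lowest, and soleus and myoblasts overlapped. EDL exceeded myotubes by 0.72 (SE 0.09, limma adjusted p = 3.41e-05) and soleus did so by 0.36 (adjusted p = 0.00457), both under the minimum of 1. These signs depend on the scale: spike-in scaling gave -0.29 and -0.86, and in soleus quantile normalization gave -0.12. On the main scale none of the 6 differences of probe 1 was called. On the spike-in scale limma called soleus lower than myoblasts (-1.56, adjusted p = 0.00216).

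Probes 2 and 3 of Sod1 match a complementary DNA clone annotated as partial in the array's own description and lie upstream of probe 1 on the same strand (90111887 to 90111946 and 90112795 to 90112854). Probe 2 gave 6.31, 6.54 and 6.35 in myoblasts, 5.98, 6.08 and 6.08 in myotubes, 5.11, 5.35 and 5.54 in EDL and 5.00, 5.13 and 5.19 in soleus. It is spotted 10 times on each array, with an SD of 0.08 to 0.37 between its spots. Probe 3 gave 8.87, 9.28 and 8.87 in myoblasts, 8.51, 8.76 and 8.52 in myotubes, 7.61, 7.93 and 7.93 in EDL and 7.76, 7.93 and 7.61 in soleus. On the main scale both probes were lower in muscle than in culture with no overlap. Probe 1 on that scale was higher in EDL than in either culture. In soleus probe 1 was higher than in myotubes but level with myoblasts (-0.002). On the spike-in scale probe 1 too was lower in both muscles than in myotubes, as given above. Against myotubes, EDL was -0.71 by probe 2 and -0.77 by probe 3, and soleus was -0.93 and -0.83, all under the minimum. On the spike-in scale these differences were larger, at -1.72 and -1.782 in EDL and -2.145 and -2.039 in soleus. Quantile normalization gave -1.252 in EDL and -1.469 in soleus for probe 2. Against myoblasts both probes were called lower, by -1.07 and -1.18 in EDL and by -1.29 and -1.24 in soleus. The EDL call of probe 2 was lost at -0.958 without EDL replicate 1 and at -0.999 without myoblast replicate 2. Normexp background correction ended all 4 of these calls, with -0.90 and -0.93 in EDL and -0.20 and -0.55 in soleus for probes 2 and 3. It turned the dim probe 2 to 0.10 in EDL and 0.80 in soleus against myotubes. Which transcripts the 3 probes bind could not be read here, since gene models of build mm8 were not used.

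**Figure D4:**
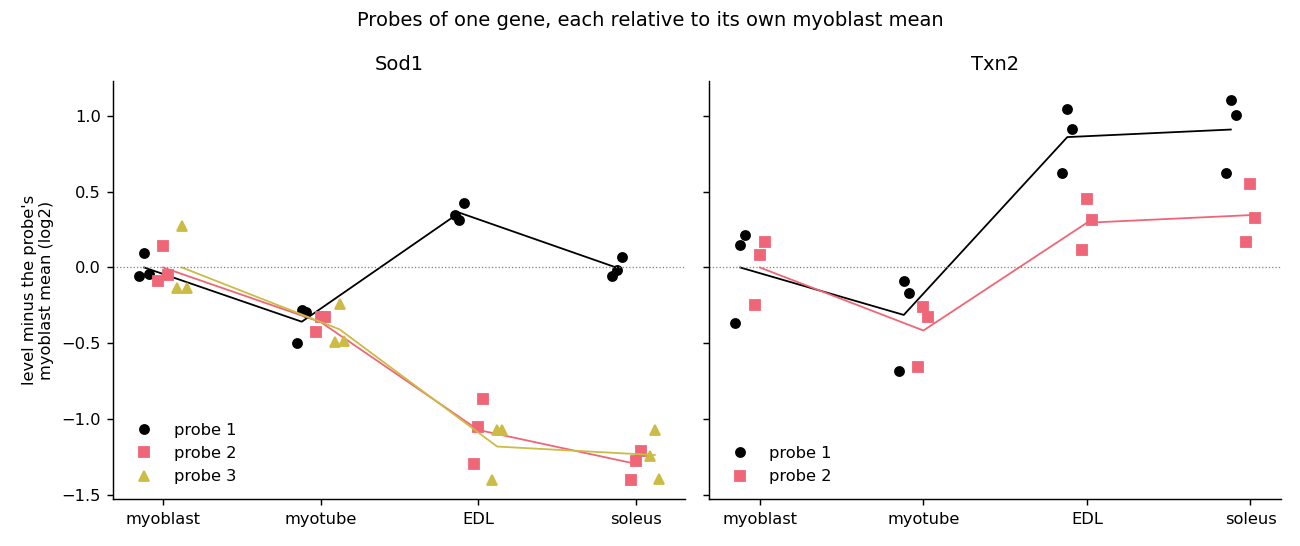
Log2 signal relative to the probe's own myoblast mean (vertical axis) for the 3 probes of Sod1 and the 2 probes of Txn2 in the 4 groups, with each array as a point and group means joined. The Sod1 probes part in muscle, where probe 1 stands at 0.36 in EDL and near 0 in soleus and probes 2 and 3 lie between -1.07 and -1.29. The 2 Txn2 probes move in the same direction but part in size in muscle. Probe 1 stands at 0.859 in EDL and 0.908 in soleus, and probe 2 at 0.295 and 0.345. On the spike-in scale all 5 probes lie below their myoblast mean in both muscles.

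Sod3, the secreted superoxide dismutase of the extracellular matrix, was near the limit of detection and was not tested. Its signal was 2.34, 2.56 and 3.63 in myoblasts, 1.84, 2.25 and 3.21 in myotubes, 2.65, 4.79 and 3.12 in EDL and 2.66, 6.38 and 4.16 in soleus. Only 3 of the 12 arrays had it well above background: myoblast replicate 3, EDL replicate 2 and soleus replicate 2. The soleus samples alone ran from 2.66 to 6.38, more than the group means differed, so no order of groups can be read at this signal. The annotated probe lies on chromosome 5 at 52656327 to 52656386 in build mm8.

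Muscle is a mixture of fibres, vessels, blood, fat, nerve and connective tissue, whereas the cultures hold 1 cell line, and in such bulk RNA fewer cells of a type and less RNA per cell cannot be told apart. Markers of these other cell types moved with the difference between muscle and myotubes. All 7 endothelial and all 8 fibroblast markers were called higher in both muscles, as were 6 of 6 adipocyte and 6 of 6 Schwann cell markers. So were 7 (EDL) and 8 (soleus) of 9 macrophage markers, and 5 of 6 smooth muscle and pericyte markers in each muscle. Of all genes 27.8% were called higher in EDL and 25.8% in soleus. In the cultures these lists were not empty: on all 3 arrays of a group, 4 (myoblast) and 1 (myotube) of the 7 endothelial markers, 4 and 5 of the 9 macrophage markers and 1 and 1 of the 6 adipocyte markers were well above background. The lists most present in culture were those of Schwann cells (6 and 5 of 6), fibroblasts (5 and 5 of 8) and smooth muscle (5 and 4 of 6). The Schwann cell marker Pmp22 stood at 13.58 in myoblasts and 13.60 in EDL. In the endothelial, macrophage and adipocyte lists the rest included defining markers that no culture array had well above background. These were Cdh5, Emcn and Pecam1, Adgre1, C1qa and C1qc, and Adipoq, Cfd and Plin1. Summed endothelial signal was 15.16 to 15.39 over the muscle samples and 6.27 to 9.92 over the cultures. Between the muscles, 4 of 6 adipocyte markers were called higher in soleus (median 1.28), beside 9.76% of all genes called in either direction. Their summed signals were 16.28 to 16.37 in EDL and 16.79 to 17.00 in soleus. On the spike-in scale limma called none of those 6, of which 2 had an unadjusted p under 0.05, although all 6 stayed above 0. The 3 erythroid markers were lower in soleus (median -1.01, 1 of 3 called). Their summed signals were 14.77 to 15.13 in EDL and 13.69 to 14.07 in soleus. Of the Schwann cell markers 2 of 6 were called higher in soleus (median 0.84). Limma called none of the endothelial or macrophage markers between the muscles, with 1 of 7 and 1 of 9 at an unadjusted p under 0.05. The part of these cells in the levels of Cat, Gpx3 and the other members was not tested. From myoblast to myotube, 5 of 5 markers of dividing cells were called lower (median -5.79), beside 35.4% of all genes called in either direction. The part of dividing cells in the fall of Gpx1 was not tested.

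The wider redox system was described over 45 other genes, all of them tested. From myoblast to myotube 16 of the 45 were called, 7 higher and 9 lower, a share near the 35.4% of all genes. Among the highest were Txnip, an inhibitor of thioredoxin (2.97, limma adjusted p = 2.20e-08), and Ggt7, of the gamma-glutamyltransferase family (2.06, adjusted p = 8.93e-08). Ggt7 had 0.48 and no call under normexp background correction. Gpx7 passed the test too, but it was well above background on no myoblast array and 1 of 3 myotube arrays, and normexp turned its difference to -1.003, so no direction is read for it. The lowest were G6pdx, the entry enzyme of the pentose phosphate pathway that supplies NADPH (-4.22, adjusted p = 6.10e-08), Prdx4, the peroxiredoxin of the endoplasmic reticulum (-3.35, adjusted p = 1.29e-09), and Ftl1, the light chain of the iron store ferritin (-3.26, adjusted p = 2.27e-06). With G6pdx and Idh2, 2 of 6 genes of NADPH supply were called lower. Of the 7 genes of the NRF2 system 2 were called lower, Ftl1 and Nqo1.

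In muscle against myotubes, 26 of the 45 genes were called in EDL, 17 higher and 9 lower, and 25 in soleus, 17 higher and 8 lower. Of all genes 47.7% were called in EDL (27.8% higher) and 45.3% in soleus (25.8% higher). On the spike-in scale the split turned to 8 higher and 18 lower in EDL and to 8 higher and 23 lower in soleus. That scale moved the median over all probes by -1.01 in EDL and -1.21 in soleus. The share of all genes called on it was not counted, so the turn cannot be read as particular to these genes. Among 7 genes of methionine repair and other selenoproteins 6 were higher in each muscle, with medians of 2.29 and 2.11, and on the spike-in scale 4 were called higher in EDL and 2 in soleus. Selenow, a small selenoprotein abundant in muscle, was 4.92 above myotubes in EDL (limma adjusted p = 3.99e-09). Gpx7, of the endoplasmic reticulum, was called higher in both muscles (adjusted p = 1.01e-08 in EDL and 1.80e-08 in soleus). Only 1 of 3 myotube arrays measured it above background, so the size is uncertain: the differences were 6.17 and 5.76, and 3.39 and 3.20 under normexp. Ggt5, of the gamma-glutamyltransferase family, was at background on all 3 myotube arrays. Against the lowest signal above background it was at least 50.9-fold higher in EDL and at least 34.7-fold higher in soleus. These bounds hold for the main background treatment only, since normexp gave log2 differences of 2.98 and 2.75, and the mean over its probes gave 5.21 and 4.59. Idh2, described below for the muscles, was 5.28 above myotubes in soleus (adjusted p = 4.85e-09). The lowest were Hmox1, the haem-degrading enzyme (-2.75 in EDL and -3.07 in soleus, adjusted p = 2.41e-07 and 1.10e-07), Gss, glutathione synthetase (-2.74 and -2.44), Pgd, of the pentose phosphate pathway (-2.62 in EDL), and Gpx8 (-2.44 in soleus).

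Between the muscles 5 of the 45 wider genes were called, 3 higher and 2 lower in soleus, beside 9.76% of all genes. The 3 higher ones are mitochondrial NADPH suppliers and a quinone reductase. Idh2, the NADP-dependent isocitrate dehydrogenase of mitochondria, stood at 12.41 ± 0.23 in EDL and 15.75 ± 0.16 in soleus (SD, n = 3), a difference of 3.34 (limma adjusted p = 1.55e-06). Nnt, the transhydrogenase of the inner mitochondrial membrane, stood at 12.63 ± 0.02 and 15.33 ± 0.18 (difference 2.70, adjusted p = 2.09e-07). Nqo1, a target of the transcription factor NRF2, stood at 10.11 ± 0.14 and 12.02 ± 0.09 (difference 1.91, adjusted p = 4.51e-07). The lower ones were Glrx, glutaredoxin (-1.10, adjusted p = 4.00e-05), and Me1, the cytosolic malic enzyme (-1.08, adjusted p = 1.23e-04). Under spike-in scaling Glrx (-1.30) and Me1 (-1.29) kept their direction but were not called, which left 3 genes. Over the whole wider list the samples of soleus and EDL did not overlap for 29 of the 45 genes, beside 44.7% of all genes.

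**Figure D5:**
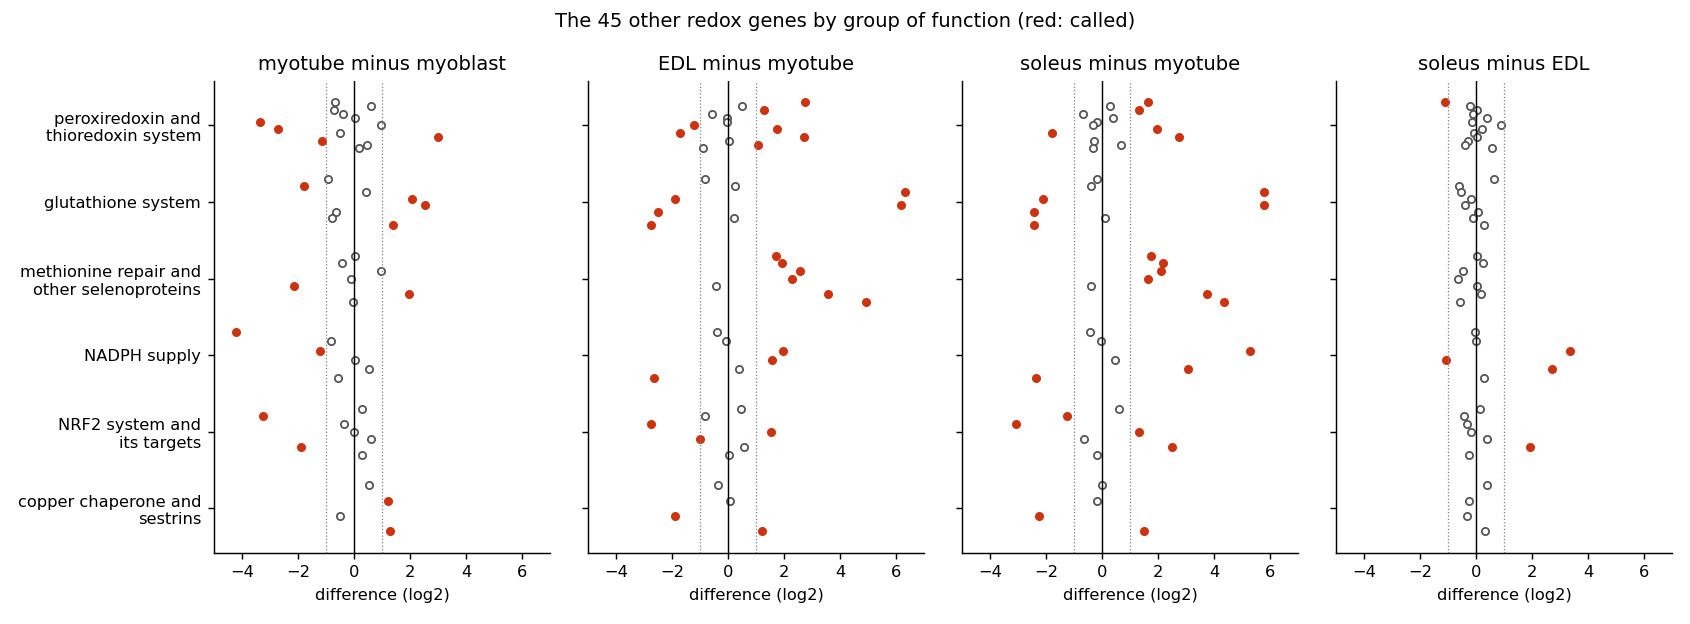
Difference in log2 signal (horizontal axis) of the 45 genes of the wider redox system, by 6 groups of function, in 4 comparisons, with called genes in red. In soleus minus EDL most points lie near 0 and 5 are called, with Idh2 at 3.34 the farthest. In muscle minus myotube the selenoprotein group lies mostly to the right (6 of 7 called higher in each muscle). On the spike-in scale, which shifts the whole array to the left, the split over the 45 genes turns to more lower than higher calls.

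For each tested member, the gene with the most similar course over the 12 arrays was found as the one with the smallest root mean square difference of centred log2 levels, among 11670 genes measured on all arrays. It was Hsdl2 for Cat (0.205), Jph1 for Gpx3 (0.172) and Zfp41 for Gpx1 (0.145). It was Nudt22 for Gpx4 (0.064), Naa38 for probe 1 of Sod1 (0.085) and Ndufb11, a subunit of respiratory complex I, for Sod2 (0.12). For Prdx3 it was Zfp677 (0.114), for Prdx5 Hsd17b10, a mitochondrial dehydrogenase (0.087), and for probe 1 of Txn2 Zfp580 (0.081). Flat courses such as that of Gpx4 give small values by themselves, so these values rank genes within 1 member only.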

How the data were processed

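RNA of the 4 groups was hybridised to single-colour Agilent mouse arrays. Per the file headers, the authors' deposited scanner files hold each spot's processed signal as an intensity. Agilent Feature Extraction 10.5.1.1 had subtracted the background and removed spatial trends, with no normalization between arrays, and the files list it beside flags for spots above background or outlying. The deposited series table holds linear values of intensity, whose normalization is not given in the sources used here, and which served as an alternative. On the log2 scale they correlated with the scanner values at r of 0.9976 or more over probes.

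Control and outlier spots (68 to 140 per array) were left out, spots of a probe were averaged, and log2 signals were set to a common 75th percentile. The linear models of limma 3.58.1, run under R 4.3.3 with the data.table package (1.17.8), were fitted to 28607 of 41174 probes with a mean for each of the 4 groups, over 12 arrays, without a block (residual degrees of freedom 8, prior 1.85). All tests were two-sided and p-values were adjusted by Benjamini-Hochberg over the probes kept. A gene was counted by its brightest kept probe. Calls needed an adjusted p under 0.05 and a log2 difference of at least 1. "At least" folds use, for the group not above background, the higher of the probe's own signal and the lowest signal above background on each array. Coordinates of probes are those of the array design (build mm8), and promoters come from RefSeq (GRCm38.p6). Other genes were named through the RefSeq table, where 24375 probes matched by accession, 6301 by symbol and 2426 by synonym, while 8072 kept their array name. The fit was tested on simulated data.

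All members were named with every probe. Of the wider list the 3 highest and 3 lowest called genes of each main comparison were named, and for each tested member the nearest gene. The members and lists were chosen with earlier results of these data known. The p-values reflect no more than the spread among these samples, which for the cultures may be technical.

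The replicate number is the slide. After removal of group means, arrays of the same slide correlated at 0.21 to 0.621 in all 18 pairs and arrays of different slides at -0.446 to 0.177, so the numbers pair the samples through the slide. The alternatives tried were other scalings, background correction, filters, probe choices, call rules, the slide as a block and leaving out samples.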

Additional observations from a re-analysis of the deposited data

How the results depend on the processing

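Both the scaling and the background correction changed the counts. With spike-in scaling 2 of the 9 genes were called in EDL against myotube and 1 in soleus against myotube, in place of 6 and 5. Quantile normalization gave 3 and 3, the authors' deposited values 3 and 3, and normexp background correction 3 and 1. Shares of all genes called were counted on the main scale only. Between the muscles limma with normexp called 0 in place of 2, with 4 at an unadjusted p under 0.05. With no minimum fold 6 genes were called from myoblast to myotube and 5 between the muscles, and 36 and 19 of the wider list. Spike-in scaling left 3 wider genes called between the muscles.

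With the slide as a replicate block the counts stayed at 2, 6, 5 and 2, and no call of a member changed. Leaving out samples gave 2 to 3 genes from myoblast to myotube, 4 to 6 in EDL and 4 to 5 in soleus against myotube, and 2 to 2 between the muscles, and for the wider list 16 to 19, 25 to 26, 24 to 25 and 5 to 5. All 75 within-slide values of the 25 called differences kept their sign. In each of these differences the groups did not overlap, which fixes those signs, so they add no support. Calls did not change with no filter, with only probes above background on all 12 arrays, with 1 probe per gene or with only the groups compared.

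Spike-in scaling reversed these differences: from myoblast to myotube Prdx3 (-0.179) and Prdx5 (-0.111); from myotube to EDL Sod1 (-0.291), Cat (-0.813) and Txn2 probe 2 (-0.300); from myotube to soleus Prdx3 (-0.055), Prdx5 (-0.141), Gpx3 (-0.544), Sod1 (-0.856), Gpx4 (-1.100), Gpx1 (-0.802) and Txn2 probe 2 (-0.451). From EDL to soleus it reversed Txn2 (-0.152 and -0.151 by probe). From myoblast to EDL it reversed Prdx5 (-0.050), Txn2 (-0.501), Sod1 (-0.999), Gpx4 (-0.934), Cat (-0.696) and Txn2 probe 2 (-1.065), and from myoblast to soleus Prdx3 (-0.235), Prdx5 (-0.253), Txn2 (-0.654), Gpx4 (-0.849) and Txn2 probe 2 (-1.217). Quantile normalization reversed Sod1 (-0.121) and Gpx4 (-0.291) from myotube to soleus, Prdx5 between the muscles (0.041) and Sod1 from myoblast to EDL (-0.218), for which the authors' deposited values gave -0.030, -0.240, 0.036 and -0.179. Normexp reversed Sod1 (-0.110) and Gpx4 (-0.295) from myotube to soleus, and between the muscles Sod2 (-0.072), Txn2 (-0.341), Txn2 probe 2 (-0.378), Gpx4 (-0.044) and Sod1 probe 3 (0.376). It also reversed Gpx7 from myoblast to myotube (-1.003) and Sod1 probe 2 in EDL (0.097) and soleus (0.799) against myotube and between the muscles (0.702). The percentile over probes above background on all arrays reversed Prdx5 between the muscles (0.054) and Sod1 from myoblast to soleus (0.114). The mean over the probes of a gene reversed Sod1 in EDL (-0.255) and soleus (-0.469) against myotube and in EDL against myoblast (-0.629), since 2 of its 3 probes move the other way. Leaving out samples gave ranges across 0 for Prdx5 (-0.097 to 0.130), Txn2 (-0.069 to 0.194), Txn2 probe 2 (-0.050 to 0.140) and Sod1 probe 3 (-0.164 to 0.077) between the muscles and for Sod1 from myoblast to soleus (-0.058 to 0.055). The other causes were not tested. Low signal over background limits Sod3, Sod1 probe 2 and Gpx7.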
